A study of Mus musculus with 32 samples.

Results

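The 9 genes described here belong to the transforming growth factor beta (TGF-beta) and activin pathway: the ligand genes Tgfb1, Tgfb2, Tgfb3 and Inhba, the receptor genes Tgfbr1 and Tgfbr2, and the target genes Smad7, Skil and Tgfbi. They were chosen by symbol, and all 9 were found among the 55103 rows of the deposited table, were above the low-count filter and were tested with 20474 genes in all. Bulk RNA-seq was made from tumours of KPC36, a mouse line of pancreatic ductal adenocarcinoma, in 4 groups of 8 libraries. A carbon-ion arm and a photon arm each had an irradiated group and an untreated control group of its own. Tumours were collected on days 4 and 7 after treatment, with controls at the same times, and the day of each library, the radiation dose and the host strain were not given in the sources used here. All 4 groups share 1 cell line, so they describe that line and its host cells. Nothing in the labels says whether each library is a separate animal, so p-values measure the spread between these libraries.

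TGF-beta ligands are secreted in a latent form, held in the matrix and released by integrins and proteases. The active dimer binds the type II receptor, which phosphorylates the type I receptor, and this in turn phosphorylates Smad2 and Smad3, which enter the nucleus with Smad4. Activin A, a dimer of the Inhba product, signals through other receptors to the same Smads. In pancreatic tumours the pathway is known for restraining epithelial growth, for driving matrix-producing fibroblasts and for dampening immune responses.

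Library totals ranged from 13891863 to 71645903 estimated counts, with overlapping ranges in the 4 groups. Titles starting with D were given to 4 carbon control and 3 carbon-treated libraries, and all other libraries, including all of the photon arm, have titles starting with M. The meaning of the letters, and whether the arms were treated and collected together, was not given in the sources used here. Libraries are numbered within a group in the order of deposition. Epithelial keratin and cadherin genes were present in every library, with medians over the 32 libraries of 1155 CPM (counts scaled to library size) for Krt8, 881 CPM for Krt18 and 735 CPM for Cdh1. Skeletal muscle markers varied most, and their summed level ran from 2.21 to 2287 CPM within the carbon controls and from 0.981 to 310.1 CPM within the photon-treated tumours. In bulk tissue, fewer cells of a type and less RNA per cell cannot be told apart.

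The promoters of Tgfb1, Tgfb2 and Inhba are shown because these 3 ligand genes were lower together in the carbon controls and varied together within groups. Each sequence is the 250 bases before the transcription start in RefSeq (GRCm38.p6), written 5′ to 3′ on the gene's strand. Capitals mark matches to a GC box (GGGCGG or its reverse complement CCGCCC) or to the Smad-binding core (CAGAC or its reverse complement GTCTG).
Tgfb1, chr7:25686752-25687001, plus strand: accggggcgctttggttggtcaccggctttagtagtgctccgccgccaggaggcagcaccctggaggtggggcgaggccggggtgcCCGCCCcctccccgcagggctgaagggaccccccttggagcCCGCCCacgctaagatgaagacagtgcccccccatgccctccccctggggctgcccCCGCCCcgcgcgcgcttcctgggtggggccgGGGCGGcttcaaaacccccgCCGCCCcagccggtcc
Tgfb2, chr1:186705990-186706239, minus strand: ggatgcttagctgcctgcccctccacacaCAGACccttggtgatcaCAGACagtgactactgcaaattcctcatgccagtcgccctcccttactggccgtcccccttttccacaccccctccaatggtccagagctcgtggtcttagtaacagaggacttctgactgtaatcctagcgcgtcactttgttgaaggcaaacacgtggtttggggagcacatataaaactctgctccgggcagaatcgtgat
Inhba, chr13:16011601-16011850, plus strand: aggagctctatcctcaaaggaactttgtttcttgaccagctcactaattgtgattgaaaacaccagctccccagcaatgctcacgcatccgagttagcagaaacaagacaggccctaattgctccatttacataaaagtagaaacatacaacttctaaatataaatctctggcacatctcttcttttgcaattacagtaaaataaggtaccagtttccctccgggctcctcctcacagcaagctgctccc

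The 3 windows differ in the motifs they hold. The Tgfb1 window held 5 GC boxes and no Smad-binding core, and its GC content was 75.2%. The Tgfb2 window held 2 Smad-binding cores and no GC box, with a GC content of 53.6%. The Inhba window held neither, nor an AP-1 site (TGANTCA), and had a GC content of 43.2%. Among 32851 RefSeq promoter windows of this length, 32.7% held a GC box, 42.2% a Smad-binding core and 6.75% an AP-1 site on either strand, and the median GC content was 52.4%. Of the other members in the promoter table, the window of the first Tgfbr1 start held 2 GC boxes and that of the second Tgfbr1 start 1 Smad-binding core. The window of Tgfbr2 held 1 Smad-binding core and that of Tgfbi held 2 Smad-binding cores and 1 GC box. Promoters were found for 6 of the 9 members.

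Levels between genes were compared as CPM per kilobase of merged exons. Tgfb1 had the highest mean over the 32 libraries, at 37.02 CPM per kilobase, followed by Tgfbr2 at 32.4. Smad7 at 28.6, Skil at 28.3, Tgfb3 at 28.0, Tgfbi at 26.6 and Tgfbr1 at 24.6 lay close together. Inhba followed at 17.8, and Tgfb2 was lowest at 4.60 CPM per kilobase. The ranges over libraries of all neighbours in this order overlapped except those of the last pair. Inhba exceeded Tgfb2 in 32 of 32 libraries, with ranges of 8.40 to 29.7 and 2.79 to 7.19 CPM per kilobase. With the longest coding transcript as the length, Tgfb1 stayed first at 85.8 CPM per kilobase, ahead of Skil at 40.8, Inhba and Tgfb2 stayed last, and Tgfbi also moved ahead of Tgfbr2.

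Tgfb1, Tgfb2, Inhba and Skil were lower in the carbon controls than in the photon controls, Tgfbr2 fell after photons, and Tgfbr1 was higher in carbon-treated than in photon-treated tumours. None of the 4 control calls held with the title letter as a covariate, while those of Tgfb1 and Tgfb2 held with M titles alone. The Tgfbr2 call ended in 24 of 32 refits with a single library omitted. After carbon ions no member passed the test, and in no comparison were the groups of any member separate.

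**Figure D1:**
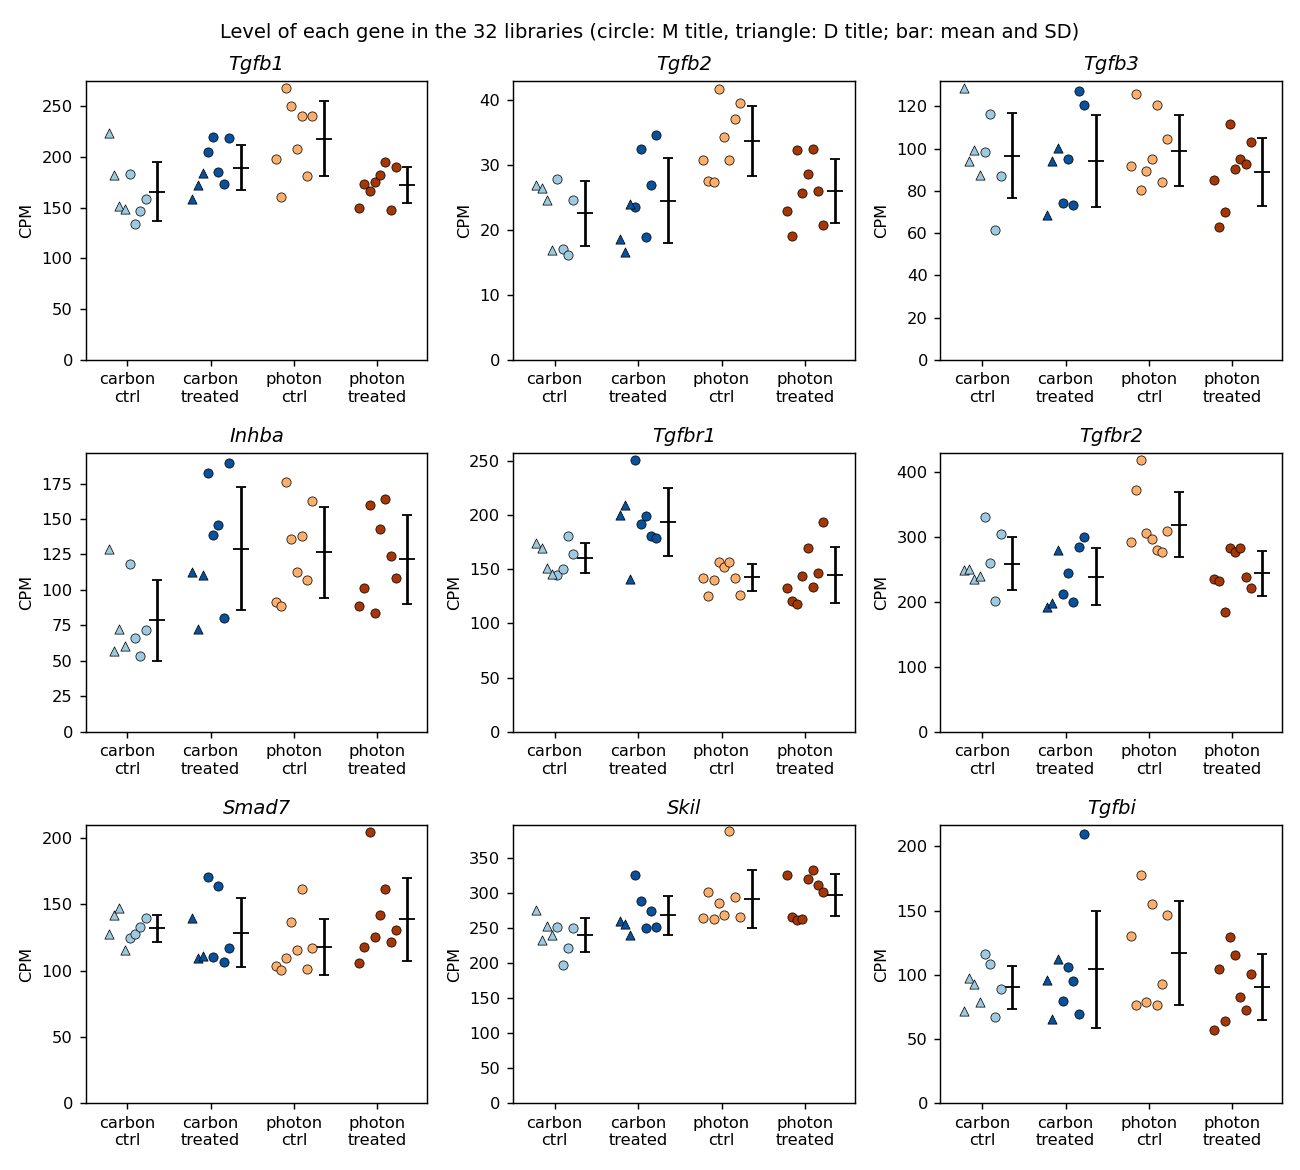
Level of each member in CPM (linear axis from 0) in the 32 libraries of the 4 groups, with circles for M titles, triangles for D titles and bars for the mean and SD of 8 libraries. The photon controls sit highest for Tgfb1, Tgfb2 and Tgfbr2, the carbon controls lowest for Inhba, and the carbon-treated tumours highest for Tgfbr1, with overlap between groups for all 9 genes.

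Tgfb1 (ENSMUSG00000002603, chr7:25687002-25705077) encodes the main TGF-beta isoform of tumours and immune cells. It ranged from 134 to 223 CPM with a median of 155 in the carbon controls, and from 159 to 220 with a median of 185 in the carbon-treated tumours. In the photon controls it ranged from 161 to 268 CPM with a median of 224, and after photons from 148 to 195 with a median of 174. The photon controls were thus the high group, and the photon-treated tumours all lay below their median. Tgfb1 was 1.31-fold lower in the carbon than in the photon controls (log2 difference -0.39, SE 0.10, adjusted p = 0.0140 by edgeR's quasi-likelihood test), with 8 of 8 carbon controls below the photon control median. The photon difference missed the threshold (log2 -0.34, SE 0.10, adjusted p = 0.0544), and so did the carbon difference (log2 0.19, SE 0.10, adjusted p = 0.897). Within the carbon arm the mean was 156 ± 21.2 CPM in M-titled controls (SD, n = 4 libraries) and 200.4 ± 20.7 CPM in M-titled treated tumours (SD, n = 5), against 176 ± 34.9 (n = 4) and 172 ± 12.7 CPM (n = 3) for D titles. The difference between the beams' effects was 0.53 on the log2 scale (95% interval 0.24 to 0.83, adjusted p = 0.105).

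Tgfb2 (ENSMUSG00000039239, chr1:186622792-186705989), a TGF-beta isoform that relies on a co-receptor to bind the type II receptor well, was the least abundant member. It ranged from 16.1 to 27.8 CPM with a median of 24.6 in the carbon controls, and from 16.6 to 34.6 with a median of 23.8 in the carbon-treated tumours. In the photon controls it ranged from 27.3 to 41.7 CPM with a median of 32.6, and after photons from 19.1 to 32.4 with a median of 25.8. Only 1 carbon control reached the lowest photon control. Tgfb2 was 1.49-fold lower in the carbon than in the photon controls (log2 -0.57, SE 0.15, adjusted p = 0.0141). After photons 8 of 8 tumours lay below the control median, with a log2 difference of -0.37 (SE 0.15) that missed the threshold (adjusted p = 0.138), and after carbon ions the log2 difference was 0.12 (SE 0.15, adjusted p = 0.997), or 0.03 without carbon-treated library 8. An antisense gene, Gm29491, overlaps Tgfb2, and the strand setting of the counting was not given in the sources used here.

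Tgfb3 (ENSMUSG00000021253, chr12:86056745-86079041), an isoform linked to fibroblasts and wound repair, differed little between groups. Its medians were 96.3 CPM in the carbon controls, 94.8 in the carbon-treated tumours, 93.5 in the photon controls and 91.8 after photons, with a range of 61.6 to 129 CPM over all libraries. The log2 difference was -0.04 (95% interval -0.32 to 0.25) after carbon ions and -0.15 (95% interval -0.44 to 0.13) after photons. The protein-coding gene Ttll5 overlaps Tgfb3 on the opposite strand, so its values are uncertain in the same way.

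Inhba (ENSMUSG00000041324, chr13:16011851-16031621) encodes the beta A subunit of activin A. It ranged from 53.7 to 129 CPM with a median of 69.0 in the carbon controls, and from 72.7 to 190 with a median of 125 in the carbon-treated tumours. In the photon controls it ranged from 88.9 to 176 CPM with a median of 124.2, and after photons from 83.5 to 164 with a median of 116. The carbon controls were the low group, with 6 of 8 below every photon control. Inhba was 1.61-fold lower in the carbon than in the photon controls (log2 -0.69, SE 0.21, adjusted p = 0.0310). It had the largest fitted difference of the members after carbon ions, with a 1.64-fold higher level than in the carbon controls (log2 0.72, 95% interval 0.29 to 1.14), and 8 of 8 treated tumours lay above the control median. That difference did not pass the test over all genes (adjusted p = 0.394, edgeR). Both Inhba values rest on the same 8 carbon controls. After photons the log2 difference was -0.06 (SE 0.21), and the difference between the beams' effects was 0.78 (95% interval 0.18 to 1.37, adjusted p = 0.252). The antisense gene Gm48444 overlaps Inhba.

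Tgfbr1 (ENSMUSG00000007613, chr4:47353222-47414931) encodes the type I receptor kinase that phosphorylates Smad2 and Smad3. It ranged from 145 to 181 CPM with a median of 158 in the carbon controls, and from 141 to 251 with a median of 196 in the carbon-treated tumours. In the photon controls it ranged from 126 to 157 CPM with a median of 142, and after photons from 118 to 194 with a median of 139. The carbon-treated tumours were the high group, and 8 of 8 lay above the photon-treated median. Tgfbr1 was 1.34-fold higher in carbon-treated than in photon-treated tumours (log2 0.42, SE 0.10, adjusted p = 0.0195). Against their own controls the log2 difference was 0.28 after carbon ions (95% interval 0.08 to 0.47, adjusted p = 0.553), with 6 of 8 above the highest control, and 0.02 after photons (95% interval -0.17 to 0.22, adjusted p = 0.915). The difference between these effects was 0.25 (95% interval -0.02 to 0.53, adjusted p = 0.418). Between the controls the log2 value was 0.17 and did not pass (SE 0.10, adjusted p = 0.294).

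Tgfbr2 (ENSMUSG00000032440, chr9:116084293-116175360) encodes the ligand-binding type II receptor. It ranged from 201 to 331 CPM with a median of 249.9 in the carbon controls, and from 192 to 299.9 with a median of 228 in the carbon-treated tumours. In the photon controls it ranged from 277 to 418 CPM with a median of 301, and after photons from 184 to 283 with a median of 236. The photon controls were the high group, and 6 of 8 photon-treated tumours lay below the lowest of them. Tgfbr2 fell 1.31-fold after photons (log2 -0.39, SE 0.11, adjusted p = 0.0463), which was close to the threshold. In the same comparison the fibroblast markers were lower in 8 of 8 genes tested, and their mean log2 CPM was lower by a difference of -0.50 (exact permutation p = 0.0129, adjusted p = 0.0290 over 9 marker lists). Summed fibroblast markers ran from 2988 to 4817 CPM after photons and from 3740.0 to 7413 CPM in the photon controls. The part of these markers in the Tgfbr2 value was not tested. After carbon ions the Tgfbr2 log2 difference was -0.12 (SE 0.11, adjusted p = 0.997), and the test of the difference between the beams gave 0.27 (95% interval -0.05 to 0.59, adjusted p = 0.463).

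Smad7 (ENSMUSG00000025880), an inhibitory Smad that is induced by the pathway and recruits ubiquitin ligases to its receptors, passed the test in none of the comparisons. Its medians were 130 CPM in the carbon controls, 114 in the carbon-treated tumours, 112 in the photon controls and 128 after photons. The highest library, at 205 CPM, was photon-treated, and the lowest, at 101 CPM, a photon control. After photons its log2 difference was 0.23 (SE 0.12, adjusted p = 0.267), with 7 of 8 treated tumours above the control median, and it was 0.14 without photon-treated library 3, the highest. The difference between the beams' effects was -0.27 (SE 0.17, adjusted p = 0.492), and -0.18 without that library.

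Skil (ENSMUSG00000027660, chr3:31095058-31122577) encodes SnoN, a Smad co-repressor induced as part of negative feedback. It ranged from 197 to 276 CPM with a median of 245 in the carbon controls, and from 240.3 to 325 with a median of 258 in the carbon-treated tumours. In the photon controls it ranged from 263 to 388 CPM with a median of 277, and after photons from 261 to 332 with a median of 306. The 2 control groups overlapped through 1 carbon control. Skil was 1.21-fold lower in the carbon than in the photon controls (log2 -0.28, SE 0.08, adjusted p = 0.0271). Its log2 difference was 0.16 after carbon ions (SE 0.08, adjusted p = 0.880) and 0.03 after photons (SE 0.08, adjusted p = 0.863).

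Tgfbi (ENSMUSG00000035493, chr13:56609523-56639562) encodes a secreted matrix protein that binds integrins. Its medians were 90.6 CPM in the carbon controls, 95.8 in the carbon-treated tumours, 112 in the photon controls and 91.6 after photons. The spread was wide, with an SD of 45.6 CPM in the carbon-treated and 40.6 CPM in the photon control group, and the full range was 56.7 to 209 CPM. The log2 difference was 0.21 (SE 0.21, adjusted p = 0.997) after carbon ions and -0.37 (SE 0.21, adjusted p = 0.324) after photons, and neither passed the test. Without carbon-treated library 8, the highest, the carbon difference was -0.01.

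**Figure D2:**
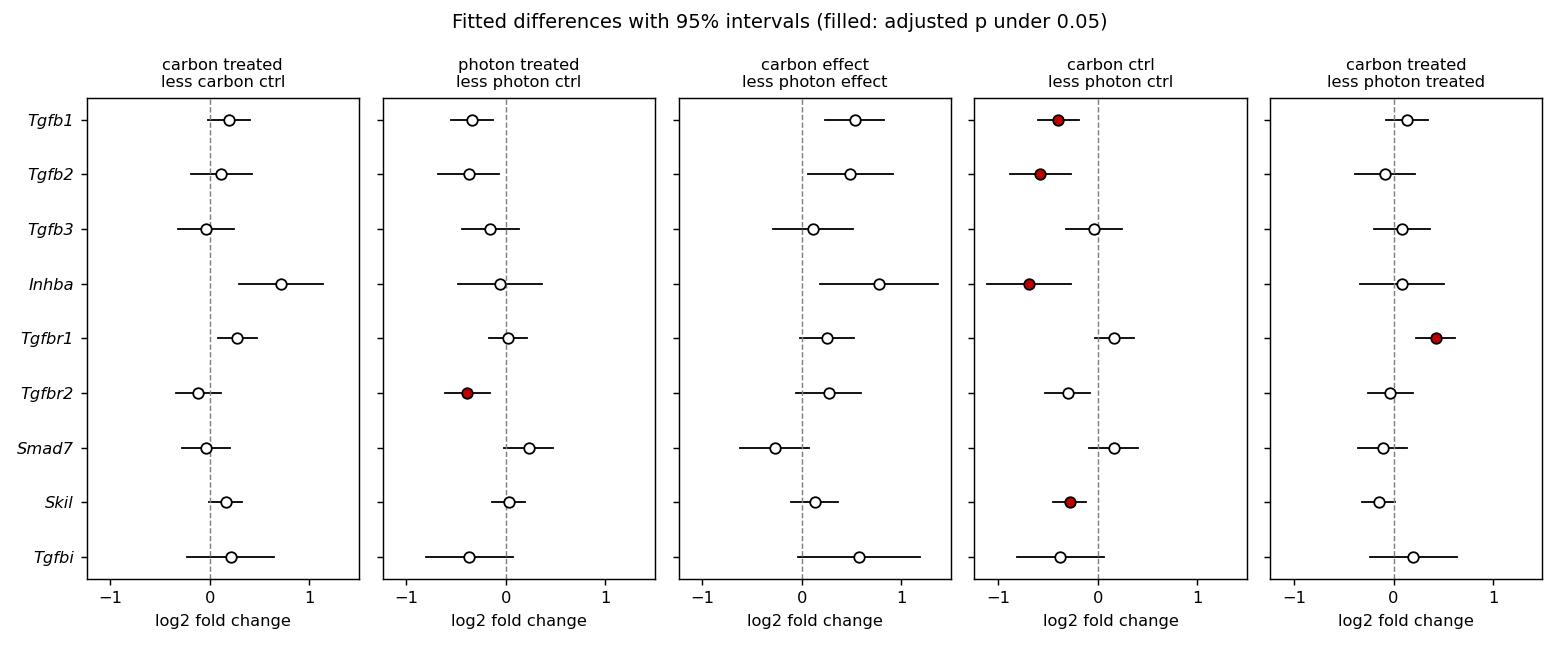
Fitted log2 fold changes of the 9 members with 95% intervals in the 5 comparisons, where filled points passed an adjusted p of 0.05. Filled points are Tgfbr2 after photons, Tgfb1, Tgfb2, Inhba and Skil between controls, and Tgfbr1 between treated groups.

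Between the untreated tumours of the arms, 4 of 9 members passed the test, all lower in the carbon controls, against 9.14% of all 20474 genes. The members' median log2 difference was -0.30, beside -0.02 over all genes tested. Omission of a single library ended the Inhba call in 10 and the Skil call in 12 of 32 refits, with the highest adjusted p at 0.0879 without photon control 3 for Inhba and at 0.134 without photon control 6 for Skil. The call of Tgfb1 was lost without photon control 3 (adjusted p = 0.0557), and that of Tgfb2 in none. Within M titles alone, where carbon controls number 4, the log2 differences of Inhba and Skil were -0.70 and -0.33, and both missed the threshold (adjusted p = 0.0951 and 0.0809). Those of Tgfb1 and Tgfb2 were -0.48 and -0.64 there, and both passed (adjusted p = 0.0231 and 0.0427). Skil was also lost without the low-count filter (adjusted p = 0.0616) and in a fit of only the control groups (adjusted p = 0.0507), and Tgfbr2 was gained with upper-quartile scaling (log2 -0.31, adjusted p = 0.0481) and without carbon control 5 (adjusted p = 0.0363). With the title letter as a covariate the differences were -0.39 for Tgfb1, -0.50 for Tgfb2, -0.55 for Inhba and -0.28 for Skil, and none passed (adjusted p = 0.0510, 0.0885, 0.181 and 0.0815). Beside these values, the fibroblast markers were lower in the carbon controls in 8 of 8 genes tested (score difference -0.43, exact permutation p = 0.0407, adjusted p = 0.116) and epithelial markers higher in 9 of 10 (0.43, exact permutation p = 0.0118, adjusted p = 0.0860). Endothelial markers were lower in 8 of 8 (score difference -0.39, exact permutation p = 0.0191, adjusted p = 0.0860) and T cell markers in 6 of 7 genes tested (-0.54, exact permutation p = 0.0514, adjusted p = 0.116). Summed fibroblast markers ran from 2019 to 4607 CPM in the carbon controls, and no marker above the low-count filter was at 0 throughout a group. The listed markers Cd8b1, Gp9, Gp6 and Treml1 were below that filter and were not examined. The part of the marker lists in the result was not tested.

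After photons, 1 of 9 members passed, Tgfbr2, against 3.81% of all genes, and 6 of 9 members were lower (median -0.15, beside -0.00 over all genes). In the refits with a single library omitted, the Tgfbr2 adjusted p ran from 0.0398 to 0.136 where that library was from the photon arm, and the highest was without photon control 3. Without the low-count filter (adjusted p = 0.0887) and with M titles alone (adjusted p = 0.0673) it was also lost, at log2 differences of -0.38 and -0.38. The comparisons after photons and between controls share the 8 photon controls. Besides fibroblast markers, pericyte and smooth muscle markers (score difference -0.88), neutrophil markers (-0.99), T cell markers (-0.79), macrophage markers (-0.46) and skeletal muscle markers (-3.66) had lower mean scores after photons, with exact permutation p-values adjusted over 9 lists of 0.00420, 0.00513, 0.00513, 0.0372 and 0.0378. The pericyte and smooth muscle list includes Des, which ran from 3.62 to 408 CPM over the 32 libraries. Endothelial markers, which Tgfbr2 also followed within groups, were lower in 7 of 8 genes, of which Tek and Emcn were called (adjusted p = 0.0356 and 0.0203, edgeR), and their score difference was -0.37 (exact permutation p = 0.0541, adjusted p = 0.0695). The T cell list was mixed, with 6 of 7 genes tested lower, 2 of them called, while Cd8a, which encodes a co-receptor of cytotoxic T cells, rose from a mean of 0.198 to 0.485 CPM (log2 1.23, adjusted p = 0.0453, edgeR) and lay above the control median in 8 of 8 tumours. Their part in the members' values was not tested.

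After carbon ions, 0 of 9 members passed, as did 0 of 20474 genes (0%) by edgeR, where 1177 genes had an unadjusted p under 0.05 and DESeq2 called 17. Inhba and Tgfbr1 had an unadjusted p under 0.05, 6 of 9 members were higher, and the members' median log2 difference was 0.16, beside 0.01 over all genes. With M titles alone, the log2 differences after carbon ions were 0.38 for Tgfb1, 0.37 for Tgfb2 and 0.29 for Skil in place of 0.19, 0.12 and 0.16, and none passed (adjusted p = 0.446, 0.596 and 0.509). No marker list passed its test after carbon ions (adjusted p of 0.779 or more, exact permutation test). The highest shift was that of platelet and megakaryocyte markers, at 0.42 (exact permutation p = 0.0866, adjusted p = 0.779). This score rests on 4 of 7 listed genes. They are Pf4, Ppbp, Itga2b and Gp1ba, with medians over the 32 libraries of 13.4, 1.34, 3.16 and 1.53 CPM.

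The effects of the beams differed in 0 of 9 members by edgeR's test of the difference, against 0.0781% of all genes, or 16 genes. Of the members 8 of 9 had a more positive effect in the carbon arm, with a median of 0.27, beside 0.02 over all genes. Their median log2 difference was -0.30 between the controls and 0.08 between the treated groups, and the difference between the effects holds both gaps. Tgfb1, Tgfb2 and Inhba had an unadjusted p under 0.05, as did 2670 of all genes (13.0%). Without photon control 2 Tgfb1 passed (adjusted p = 0.0448), and DESeq2 called Tgfb1 alone among the members (adjusted p = 0.0447). Between the treated groups, 1 of 9 members passed, Tgfbr1, against 5.08% of all genes. Its call was lost without photon-treated library 1 or 3 (adjusted p = 0.0515 and 0.0571) and in a fit of only these 16 libraries (adjusted p = 0.0820), where the log2 difference was 0.43. In this comparison neutrophil markers were higher by 1.04 and macrophage markers by 0.59 in the carbon-treated group (exact permutation test, adjusted p = 0.00140 and 0.0203). Skeletal muscle (3.59), epithelial (0.45) and pericyte and smooth muscle markers (0.45) missed the threshold (adjusted p = 0.0717, 0.0717 and 0.0811, same test). The endothelial score differed by -0.01 (adjusted p = 0.943). The part of the marker lists in the Tgfbr1 value was not tested.

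Of 85 other genes of the pathway, 79 were tested. Between the controls 12 of 79 passed, 1 higher and 11 lower in the carbon controls, beside 9.14% of all genes, and the median log2 difference was -0.25. The lower genes included Smad3 (log2 -0.51, SE 0.11, adjusted p = 0.00337), which carries the receptor signal to the nucleus, and Tgif2, a Smad co-repressor (log2 -0.74, adjusted p = 0.0133). The target genes Fn1 and Tnc, which encode the matrix proteins fibronectin and tenascin C, were lower by log2 differences of -0.72 and -0.60 (adjusted p = 0.0133 and 0.0132), with Snai1 at -0.83 and Snai2 at -0.44 (adjusted p = 0.0479 and 0.0488). Fn1 averaged 2710 ± 613 CPM (SD, n = 8) in the carbon controls and 4452 ± 1007 CPM in the photon controls. Of the bone morphogenetic protein (BMP) receptors, Acvr1 (-0.35), Bmpr1a (-0.37) and Bmpr2 (-0.25) were lower, as were the activin receptor gene Acvr2b (-0.45) and the integrin gene Itgb3 (-0.36). Ltbp1, which anchors latent TGF-beta in the matrix, was the gene that passed in the other direction (log2 0.55, adjusted p = 0.0155), at 302 ± 57.0 CPM against 207 ± 34.5 CPM (SD, n = 8 libraries each, edgeR). The count of 12 became 3 with the title letter as a covariate, 6 with M titles alone and 7 without the low-count filter, and ran from 6 without carbon control 7 to 19 without carbon control 5.

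After photons 4 of the 79 passed, or 5.06%, which is near the 3.81% of all genes. Smurf1, a ubiquitin ligase that acts with Smad7 on the receptors, rose (log2 0.33, SE 0.09, adjusted p = 0.0331). Itgb3, whose integrin can release latent TGF-beta, fell (log2 -0.41, adjusted p = 0.0356), as did Acvr1 (log2 -0.30, adjusted p = 0.0253) and the protease inhibitor gene and TGF-beta target Timp1 (log2 -1.02, adjusted p = 0.0364). Timp1 averaged 38.0 ± 15.2 CPM after photons and 77.4 ± 37.2 CPM in the photon controls (SD, n = 8 libraries each). These 4 calls became 0 without the low-count filter, 0 without photon control 3 and 8 with DESeq2.

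After carbon ions 0 of the 79 passed (edgeR), and 12 (15.2%) had an unadjusted p under 0.05, beside 5.75% of all genes. In the list of other target genes 17 of 20 had a positive log2 difference after carbon ions (median 0.22) and 16 of 20 a negative one after photons (median -0.28), beside medians of 0.01 and -0.00 over all genes. The smallest p of the target list after carbon ions was that of Tagln, which encodes a smooth muscle actin-binding protein (log2 0.45, SE 0.15, unadjusted p = 0.00425, adjusted p = 0.521). In the activin branch it was Fstl3, whose product binds and neutralises activins (log2 0.55, SE 0.18, adjusted p = 0.521), and among the genes of latency and activation Thbs1, whose product thrombospondin 1 can activate latent TGF-beta (log2 0.47, SE 0.16, adjusted p = 0.553). None of these 3 passed the test. Between the controls the list of other target genes had a median of -0.38, with 16 of 20 lower in the carbon controls. Between the treated groups its median was 0.14, with 14 of 20 higher with carbon ions. The difference between the beams' effects, which holds both gaps, was positive for 19 of 20 target genes (median 0.54). It was called for none, with Timp1 at 1.38 (SE 0.40, adjusted p = 0.121). In the same comparison the values were also positive for 8 of 8 fibroblast (median 0.47), 8 of 8 macrophage (0.56), 8 of 8 endothelial (0.37), 6 of 6 neutrophil (0.80) and 5 of 5 pericyte and smooth muscle markers (0.47), none of them called, and their part in the target genes' values was not tested. Between the treated groups Smad3 and Tgif2 were lower with carbon ions (log2 -0.38 and -0.62, adjusted p = 0.0380 and 0.0497), in the same direction as between the controls. These 2 calls are 2.53% of the 79 genes, below the 5.08% of all genes, and they became 0 in a fit of only the 16 libraries.

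**Figure D3:**
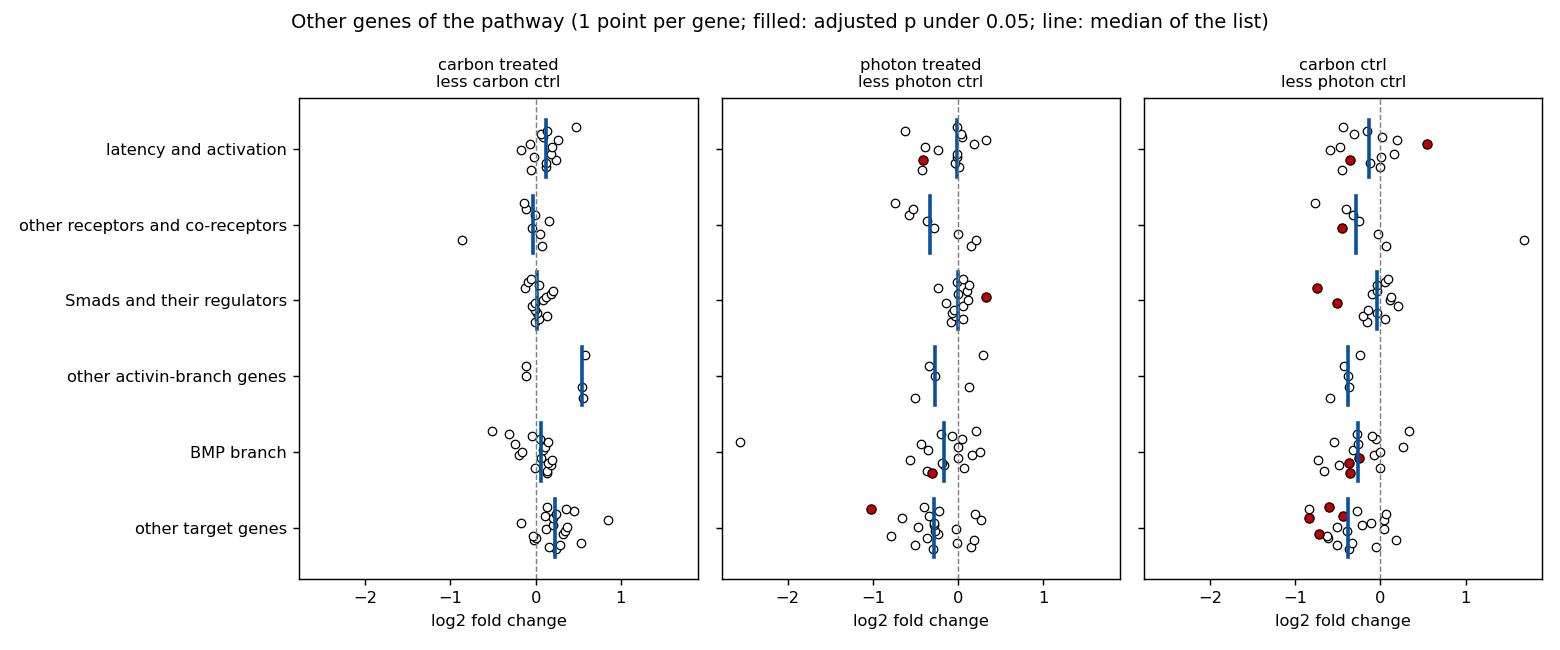
Log2 fold changes of the 79 other pathway genes tested, by list, after carbon ions, after photons and between controls, with 1 point per gene, filled where the adjusted p was under 0.05, and the list median as a line. The target list has its median at 0.22 after carbon ions, -0.28 after photons and -0.38 between controls, and 12 points are filled between controls.

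Within groups, 3 of the ligand genes varied together, Tgfbr2 varied with fibroblast markers and Tgfbi with macrophage markers. Pearson r and Spearman rho of log2 CPM were computed over the 32 libraries after subtraction of group means, with p-values adjusted over all relations of members with each other and with marker lists. Values of a library share its depth and scaling. Where the 2 farthest libraries were left out, these lay farthest from the median of the second gene named or of the marker list. Of 36 member pairs 3 passed both tests, and all 3 were among Tgfb1, Tgfb2 and Inhba. Tgfb1 and Inhba gave r = 0.69 and rho = 0.68 (permutation p = 7e-05 and 8e-05, adjusted p = 0.00205 and 0.00312), and r was 0.62 without the 2 libraries farthest from the Inhba median. Within titles r was 0.69 for M and 0.62 for D. Tgfb1 and Tgfb2 gave r = 0.50 and rho = 0.55 (permutation p = 0.00417 and 0.00136, adjusted p = 0.0461 and 0.0199), with r of 0.46 without the 2 farthest libraries and 0.37 and 0.64 within M and D titles. Tgfb2 and Inhba gave r = 0.53 and rho = 0.55 (permutation p = 0.00473 and 0.00334, adjusted p = 0.0461 and 0.0355), with r of 0.48 without the 2 farthest libraries and 0.46 and 0.52 within titles.

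Of 81 relations of a member with a marker list 9 passed both tests. Tgfbr2 followed the fibroblast markers most closely, with r = 0.86 and rho = 0.84 (permutation p = 1e-05 for both, the smallest that the permutations can give, adjusted p = 0.000585). Without the 2 farthest libraries r was 0.82, and within M and D titles it was 0.85 and 0.95. Tgfbr2 also followed the endothelial markers (r = 0.59, rho = 0.56, permutation p = 0.00066 and 0.00147, adjusted p = 0.0129 and 0.0199, r = 0.54 without the 2 farthest, and 0.56 and 0.80 within titles).

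Tgfbi followed the macrophage markers (r = 0.82, rho = 0.84, permutation p = 1e-05 for both, adjusted p = 0.000585), with r of 0.84 without the 2 farthest libraries and 0.86 and 0.69 within M and D titles. Its relation with fibroblast markers was r = 0.71 and rho = 0.67 (permutation p = 5e-05 and 0.0002, adjusted p = 0.00195 and 0.00491), with r of 0.60 without the 2 farthest libraries and 0.71 and 0.61 within titles. It also passed with platelet markers (r = 0.63, rho = 0.60, permutation p = 0.00044 and 0.00064, adjusted p = 0.0103 and 0.0125, r = 0.52 without the 2 farthest, 0.61 and 0.76 within titles) and with T cell markers (r = 0.58, rho = 0.64, permutation p = 0.00098 and 0.00021, adjusted p = 0.0164 and 0.00491, r = 0.54 without the 2 farthest, 0.64 and 0.86 within titles). The platelet score holds 4 of its 7 listed genes.

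Tgfb1 and Inhba ran against the neutrophil markers. Tgfb1 gave r = -0.51 and rho = -0.52 (permutation p = 0.00373 and 0.00367, adjusted p = 0.0461 and 0.0358), and Inhba r = -0.52 and rho = -0.55 (permutation p = 0.00254 and 0.00153, adjusted p = 0.0371 and 0.0199). Without the 2 farthest libraries r was -0.49 for Tgfb1 and -0.41 for Inhba, and within M titles it was -0.44 and -0.45, and within D titles -0.59 and -0.58. Inhba also followed the same score of 4 of 7 platelet markers (r = 0.53, rho = 0.51, permutation p = 0.00441 and 0.00542, adjusted p = 0.0461 and 0.0423). This relation fell to r = 0.40 without the 2 farthest libraries and was 0.61 and 0.24 within M and D titles. Tgfbr1, Smad7, Skil and Tgfb3 passed both tests with no other member and no marker list.

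**Figure D4:**
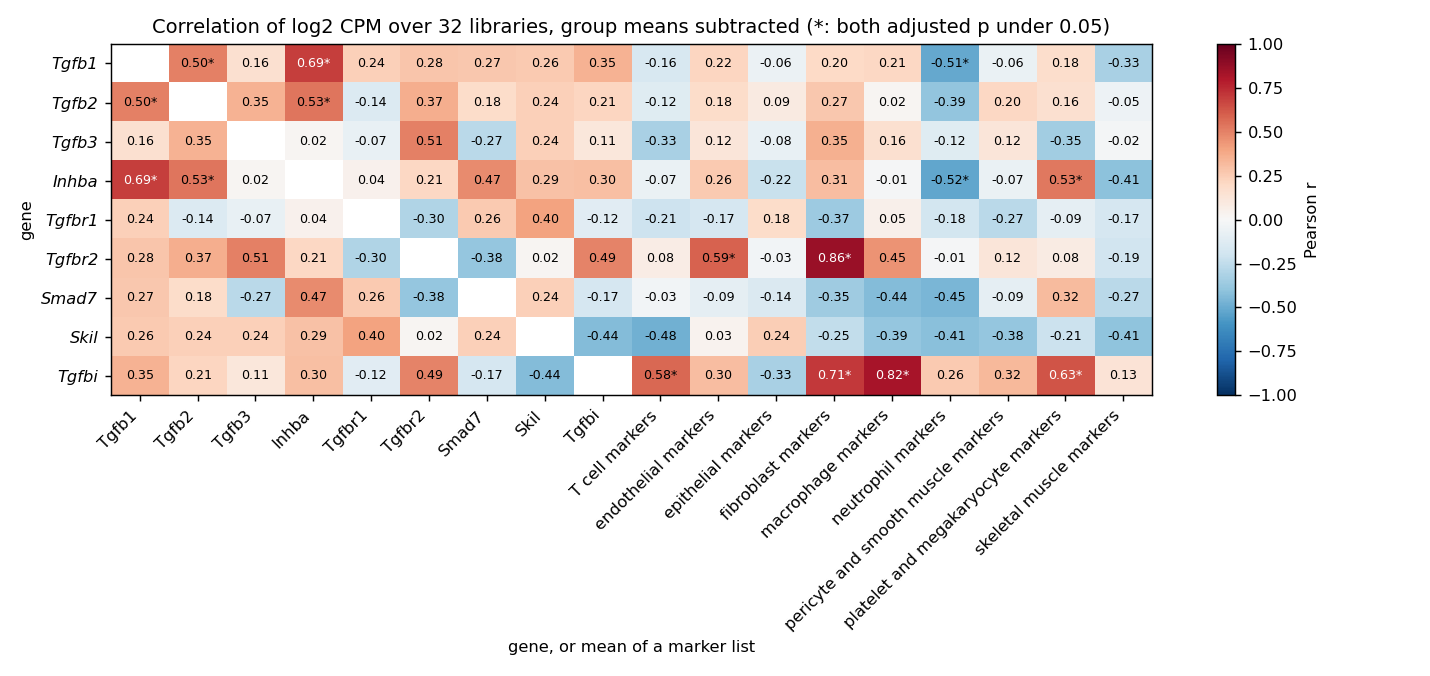
Pearson r of each member with the other members and with the mean log2 CPM of 9 marker lists over 32 libraries, group means subtracted, on a colour scale from -1 to 1, with a star where both adjusted p were under 0.05. The stars stand at 3 member pairs among Tgfb1, Tgfb2 and Inhba, at Tgfbr2 with fibroblast (0.86) and endothelial markers, at Tgfbi with macrophage (0.82) and 3 other lists, and at neutrophil and platelet markers for Tgfb1 or Inhba.

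The genes most like each member were taken from all genes tested, by Pearson r of group-centred log2 CPM over the same 32 libraries, as a description. For Tgfb1 they were Tmem184b (0.86), Ptk2b (0.83) and Plekho2 (0.82). For Tgfb2 they were the smooth muscle actin gene Actg2 (0.77), Tagln (0.71) and Rhoq (0.70). For Tgfb3 they were Edil3 (0.88) and the collagen genes Col8a2 (0.80) and Col8a1 (0.78). For Inhba they were Smtn (0.87), which encodes the smooth muscle protein smoothelin, Kctd11 (0.86) and Loxl2 (0.85), a collagen cross-linking enzyme gene.

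For Tgfbr1 the most alike were the heat shock gene Hspa1b (0.80), Ndfip1 (0.79) and Trim56 (0.77). For Tgfbr2 they were C1qtnf1 (0.86), the thrombospondin gene Thbs2 (0.85) and Gpc6 (0.85). For Smad7 they were Mast4 (0.74), Blcap (0.74) and the Notch ligand gene Jag1 (0.73), and for Skil Bbx (0.81), Efnb2 (0.81) and Aff4 (0.80). Tgfbi had the closest companions of the members, with Olfm1 at 0.95, the myeloid receptor gene Sirpa at 0.93 and the properdin gene Cfp at 0.93.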

How the data were processed

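RNA-seq was measured in 32 tumour libraries made with a stranded mRNA kit, per the labels' protocols. The table holds estimated counts per gene, deposited by the authors, and per the submitters' processing notes the tools were FastQC 0.12.0, Trimmomatic 0.32 and RSEM 1.3.3 with the mm10 build. The aligner, annotation and strand setting were not given in the sources used here. None of the 853648 values above 0 was whole, so values were rounded to counts, which changed library totals by at most 0.00403%. Genes were filtered with filterByExpr (minimum count 10), scaled by TMM and fitted with edgeR 4.0.16 in R 4.3.3 (quasi-likelihood test) with 1 coefficient per group over all 32 libraries. P-values were adjusted by Benjamini-Hochberg over 20474 genes, with a threshold of 0.05. CPM uses the TMM-scaled library totals, and log2 CPM adds a prior count of 2. Library totals of 13891863 to 71645903 limit the precision of low genes.

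Marker lists were compared as mean log2 CPM by two-sided exact permutation tests over 12870 splits of 16 libraries (scipy 1.17.1), and correlations by 100000 permutations of libraries within groups. Fits were tested on simulated data. Gene positions and lengths come from GENCODE M21 models and promoters from RefSeq. All 9 members are named. Of every other pathway list, the genes called in a comparison are named, at most 5 by smallest p, or else the gene with the smallest p, and some of the latter are left out. For likeness, the 3 genes with the highest r and a mean log2 CPM of at least 2 are named, with predicted genes and other members passed over. The members and lists were chosen with earlier results of these data known. The alternatives were 7 settings (2 other scalings, no low-count filter, DESeq2 1.42.0, only the groups compared, M titles only, title letter as covariate) and 32 fits that each left out 1 library.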

Additional observations from a re-analysis of the deposited data

Results flagged for a closer look

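In 2 of the 36 combinations of a member and a group, the highest library stood apart from the other 7 by more than Dixon's limit for 8 samples, and chance gives about 1 such case in 20. Skil reached 387.7 CPM in photon control 6, with a gap of 0.69 of the group's range. Without that library the difference between the controls was -0.19 on the log2 scale and no longer passed (adjusted p = 0.134, edgeR). Tgfbi reached 209.1 CPM in carbon-treated library 8, with a gap of 0.672 of the range. Without that library the Tgfbi difference after carbon ions was -0.01 in place of 0.21 on the log2 scale, and it passed the test in neither case.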

How the results depend on the processing

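Of 306 member values under the 7 alternative settings, 287 kept their direction and their side of the threshold. No paired analysis was possible because replicate numbers only follow the order of deposition. DESeq2 called 17 genes after carbon ions, 1524 genes, 2 members (Tgfbr2 and Tgfb1) and 8 pathway genes after photons, 262 genes, 1 member and 3 pathway genes for the difference between the effects, and 1947 genes between the treated groups. Without the low-count filter the counts were 431 genes, 0 members and 0 pathway genes after photons, 4 genes for the difference, 7 pathway genes between controls, and 319 genes and 0 pathway genes between the treated groups. Upper-quartile scaling gave 94 genes for the difference, and it moved the split of calls to 566 higher and 394 lower after photons (351 and 430 with TMM), 22 and 72 for the difference (7 and 9) and 519 and 537 between the treated groups (726 and 315). With M titles alone 0 members and 2 pathway genes were called after photons, 1 gene for the difference, and 973 genes, 2 members and 6 pathway genes between controls. The title letter as covariate left 1081 genes, 0 members and 3 pathway genes between controls, and 502 genes and 0 pathway genes between the treated groups, where only the groups compared gave 57 genes, 0 members and 0 pathway genes. The causes were not tested. Directions turned with M titles alone for Smad7 (0.0419) and Tgfb3 (0.13) after carbon ions and for Tgfb2 (0.10) and Tgfbr2 (0.0505) between the treated groups, and with the letter as covariate for Tgfbr2 there (0.0260), none of them called.

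Leaving out 1 library at a time, the calls ranged from 0 to 5 genes after carbon ions. After photons they ranged from 239 genes (without photon control 3) to 1656 (without photon control 2), 0 to 2 members and 0 to 7 pathway genes. For the difference they ranged from 5 to 108 genes, 0 to 1 members and 0 to 3 pathway genes. Between controls they ranged from 1178 to 2196 genes, 2 to 5 members and 6 to 19 pathway genes, and between the treated groups from 108 to 2159 genes, 0 to 1 members and 0 to 3 pathway genes. Uncalled values that turned direction ranged from -0.12 to 0.0339 (Tgfb3) and -0.0144 to 0.28 (Tgfbi) after carbon ions, -0.13 to 0.0266 (Inhba) and -0.0421 to 0.0676 (Tgfbr1) after photons, -0.10 to 0.0567 (Tgfb3) between controls, and -0.0039 to 0.17 (Inhba), -0.0154 to 0.29 (Tgfbi) and -0.0764 to 0.0163 (Tgfbr2) between the treated groups. Markers such as Cd8a and Mmp8, with medians over the 32 libraries of 0.298 and 0.456 CPM, rest on few counts in the shallowest libraries.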
